A study of Mus musculus with 2 samples.

Results

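The collagen gene family was described as the mouse protein-coding genes whose symbol has the form Col, a number, a and a number. The rule took 44 genes, of 43346 Ensembl genes in the deposited tables and 21474 protein-coding genes with a symbol. They lie on 15 chromosomes. By the class of protein they encode, 11 are fibrillar, 6 form beaded filaments, 6 form the network of basement membranes and 9 are FACIT collagens, which attach to fibrils. There were also 2 multiplexins, 4 transmembrane collagens, 3 short-chain network collagens, the anchoring fibril gene Col7a1, and Col26a1 and Col28a1, which were left outside these classes.

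The study sequenced total RNA of stomachs from B6NCrl mouse embryos at embryonic day 14.5, with 2 libraries in 1 group and no second condition, so no test between conditions could be made. Per the labels, 1 pup gave 1 stomach for 1 library, and the stomachs were collected on different days. The labels also give the sex as pooled male and female, at odds with 1 pup a library, and Xist, the noncoding RNA of the inactive X chromosome, had 13.5 counts in replicate 1 and 32038 in replicate 2. Expected counts on genes totalled 23668322 in replicate 1 and 23882647 in replicate 2, and 8 of 8 stomach markers were detected, led by the chymosin gene Cym at 2152 TPM in replicate 1 and 1927 TPM in replicate 2, with the transcription factors Foxf1 (112 and 120 TPM) and Barx1 (108 and 94.5 TPM) next.

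Collagen chains fold in threes into a helix in which glycine recurs at a fixed step, written Gly-X-Y, because only glycine is small enough to sit at the centre of the helix. Chains are hydroxylated and glycosylated in the endoplasmic reticulum, secreted as procollagen, trimmed and cross-linked outside the cell. In the wall of the gut, mesenchymal cells lay down fibrils of types I, III and V under an epithelium that rests on a basement membrane of type IV.

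The repeat is visible in the genes themselves. In GENCODE M21 coding sequences, 469 of 1914 internal coding exons of the collagens (24.5%) were exactly 54 bases long, which is 6 repeats of 9 bases. In 21467 other protein-coding genes the share was 0.446% of 156150 internal coding exons. The share was 48.6% in fibrillar genes, 26.3% in FACIT genes and 4.23% in type IV genes. One such exon of each of the 3 most abundant collagens is shown because these genes carry most of the family's RNA. The sequences are read 5′ to 3′ on the plus strand of mm10, and capitals mark the glycine codon that opens each repeat.
Col1a1 coding exon 8 (chr11:94939904-94939957): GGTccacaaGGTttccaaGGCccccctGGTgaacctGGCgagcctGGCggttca
Col1a2 coding exon 8 (chr6:4515481-4515534): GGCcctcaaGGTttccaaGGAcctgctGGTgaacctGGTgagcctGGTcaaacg
Col3a1 coding exon 6 (chr1:45325360-45325413): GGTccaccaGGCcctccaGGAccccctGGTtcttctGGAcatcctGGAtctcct
Each exon shown is the first 54-base coding exon of its gene that starts in frame and opens all 6 repeats with glycine. Its start with a glycine codon follows from this choice and is not a result. Of the 6 glycine codons that open a repeat, GGT was used 3 times in the Col1a1 exon, 4 times in the Col1a2 exon and 2 times in the Col3a1 exon. Over all repeat runs, GGT made up 53.8% of the glycine codons in Col1a1, 51.3% in Col1a2 and 40.6% in Col3a1. Over the 44 collagens it made up 26.6%, and over the glycine codons of all other genes 17.7%. The most used codon in the repeat runs of the 44 collagens was GGA, at 36.0%, against 26.3% in all other genes.

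Classes differed in how long the repeat ran unbroken. The longest run had a median of 338 triplets in the 11 fibrillar genes, with a range of 216 to 344. Col24a1 and Col27a1, which encode fibrillar chains with a shorter helix, had the lowest values at 216 and 217. The helix of type IV is known to be interrupted many times, and in the 6 type IV genes the longest run was 39 to 66 triplets. These features come from the annotation and do not depend on the libraries.

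**Figure D1:**
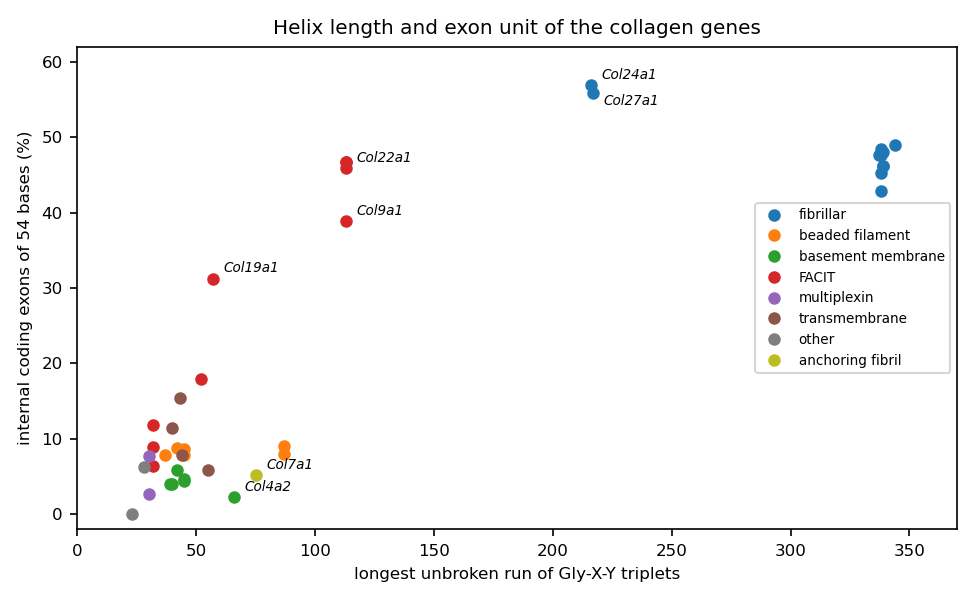
Longest unbroken run of Gly-X-Y triplets (x axis) against the percent of internal coding exons that are 54 bases long (y axis), for each collagen gene with internal coding exons, coloured by class. Fibrillar genes sit at 216 to 344 triplets, and the 6 type IV genes at 39 to 66 triplets.

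In E14.5 stomach, 36 of the 44 collagens were detected, meaning that their TPM, a level corrected for transcript length and library total, was 1 or more in both libraries. Over all protein-coding genes the detected share was 61.8% (13271 of 21474). Collagens took 0.519% of gene TPM in replicate 1 and 0.483% in replicate 2 (0.501% ± 0.026, SD, n = 2), and 1.53% and 1.44% of gene counts. The larger share by counts goes with long transcripts, for which the same TPM takes more reads. Levels spanned 0.17 to 1676 TPM. The 3 highest members held 71.0% of the family's TPM in replicate 1 and 71.4% in replicate 2, and the 10 highest held 90.8% and 90.9%. In bulk RNA, fewer cells of a type and less RNA per cell cannot be told apart, so these are levels of the whole organ.

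**Figure D2:**
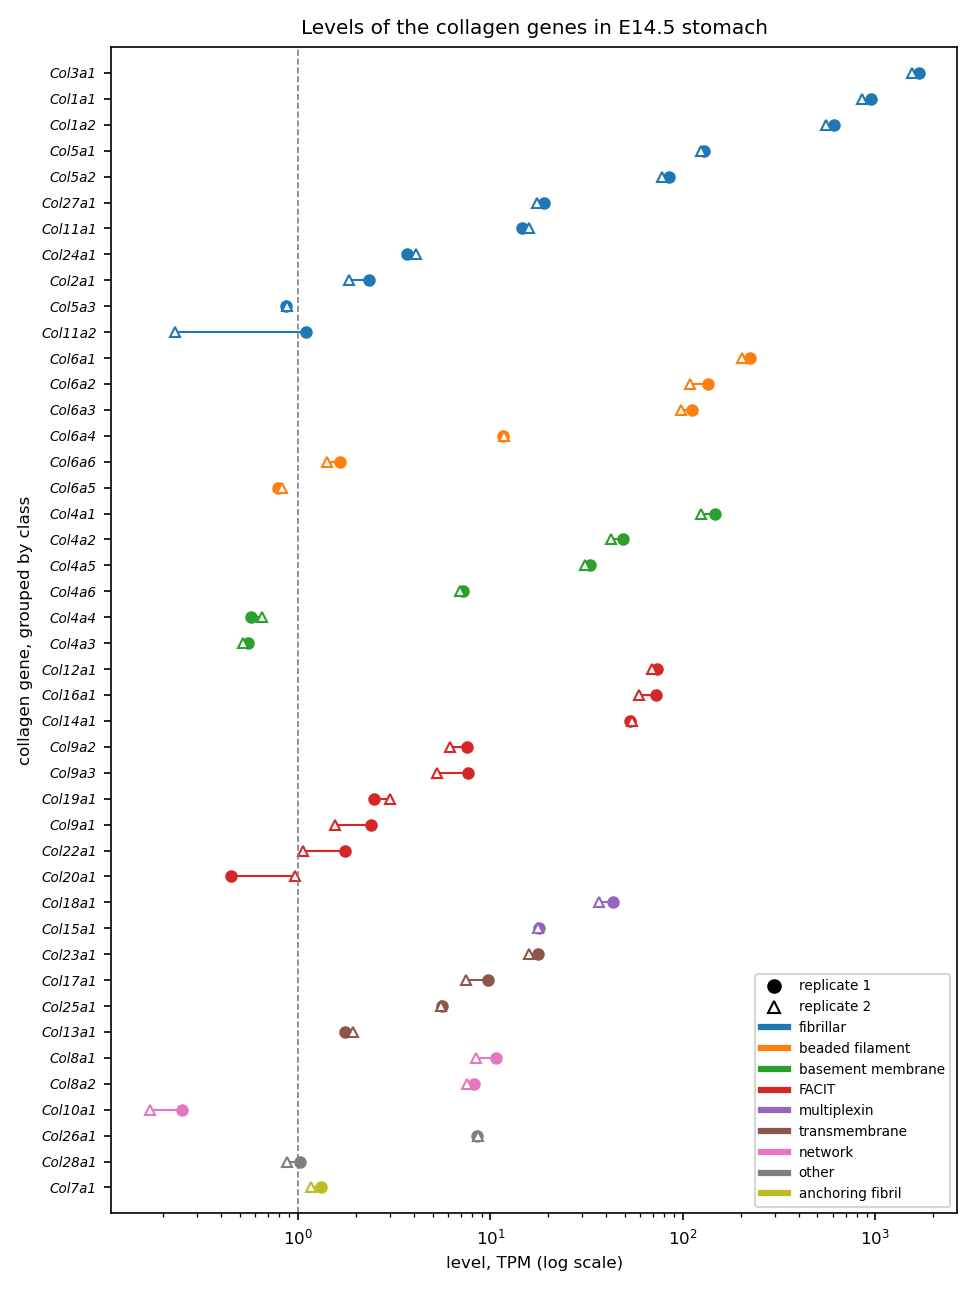
Level of each of the 44 collagen genes in TPM (x axis, log scale), grouped by class from the most to the least abundant class. Filled circles are replicate 1, open triangles replicate 2, and the dashed line marks TPM 1. The 3 highest genes are Col3a1, Col1a1 and Col1a2, and 8 genes lie under the line in at least 1 library.

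Fibrillar collagens, the rope-like proteins that carry tension, dominated the family with 76.6% of collagen TPM in replicate 1 and 77.3% in replicate 2 (76.9% ± 0.447, SD, n = 2). Col3a1, the chain of type III collagen of distensible organs (ENSMUSG00000026043.14, chr1:45311538-45349706, plus strand), was the highest at 1676 TPM in replicate 1 and 1551 TPM in replicate 2. Col1a1, a chain of type I collagen (chr11:94936224-94953042, plus strand), had 949 TPM in replicate 1 and 852 TPM in replicate 2. Col1a2, the other type I chain, had 612 and 556 TPM in replicates 1 and 2. The order of these 3 was the same in both libraries and their values did not overlap. Type V collagen, which sits inside type I fibrils and limits their width, came next with Col5a1 at 129 and 123 TPM and Col5a2 at 84.5 and 77.7 TPM in replicates 1 and 2.

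The remaining fibrillar genes were far lower. Col27a1, a fibrillar chain known from cartilage, had 18.9 TPM in replicate 1 and 17.4 TPM in replicate 2. Col11a1, which in cartilage forms the core of thin fibrils, had 14.5 TPM in replicate 1 and 15.9 TPM in replicate 2, from 1407 and 1581 counts. The partner chain Col11a2 had 57 counts in replicate 1 and 25 in replicate 2 (1.10 and 0.23 TPM) and was not detected in both. Col24a1 had 3.67 TPM in replicate 1 and 4.08 TPM in replicate 2. Type II collagen, the main collagen of cartilage, was near the detection threshold, with Col2a1 at 2.35 TPM (195 counts) in replicate 1 and 1.84 TPM (165 counts) in replicate 2.

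Type VI collagen builds beaded filaments around cells and gave the class with the next largest share, 10.6% of collagen TPM in replicate 1 and 10.2% in replicate 2. Col6a1 (chr10:76708792-76726168, minus strand) had 222 TPM in replicate 1 and 203 TPM in replicate 2. Col6a2, in the same orientation 85161 bases away, had 134 and 109 TPM in replicates 1 and 2. Col6a3, the largest of the 3 classical chains, had 111 and 98.1 TPM in replicates 1 and 2, a value that rests largely on a short transcript described with the transcripts. Of the 3 genes clustered on chromosome 9 that encode alternative partners of Col6a1 and Col6a2, Col6a4 had 11.7 TPM in replicate 1 and 11.8 TPM in replicate 2. Col6a6 had 1.66 and 1.41 TPM, and Col6a5 was not detected at 0.79 and 0.83 TPM. The cluster thus held members from 0.79 to 11.8 TPM. Counts of these 3 were not whole numbers, so part of their reads was shared with other genes and split by estimate.

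Type IV collagen forms the sheet of the basement membrane and held 5.21% of collagen TPM in replicate 1 and 4.98% in replicate 2. Col4a1 had 147 TPM in replicate 1 and 125 TPM in replicate 2. Col4a2, its partner in the common basement membrane trimer, had 48.5 TPM in replicate 1 and 42.1 TPM in replicate 2. The pair on the X chromosome, which encodes chains of a trimer found around smooth muscle among other places, had 32.9 and 31.2 TPM for Col4a5 and 7.20 and 6.95 TPM for Col4a6 in replicates 1 and 2. Col4a3 and Col4a4, known from the kidney glomerular trimer, were not detected, with Col4a3 at 0.55 and 0.52 TPM and Col4a4 at 0.57 and 0.65 TPM. Each of the 3 pairs lies head to head on its chromosome, with annotated starts 21, 72 and 1309 bases apart for Col4a1 and Col4a2, for Col4a3 and Col4a4, and for Col4a5 and Col4a6.

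Col4a1 and Col4a2 start on opposite strands from overlapping promoters, and the 78 bases common to both RefSeq promoter windows (GRCm38.p6, the mm10 assembly) are shown because both genes start within them and yet differ in level. The stretch is read on the plus strand, in the direction of Col4a2, and capitals mark a GC box.
Col4a1 and Col4a2 shared start region (chr8:11312777-11312854): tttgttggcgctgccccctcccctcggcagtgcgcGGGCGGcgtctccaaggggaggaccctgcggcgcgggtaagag
Col4a2 starts at base 11312805 on the plus strand and Col4a1 at 11312826 on the minus strand. The GC box motif searched was GGGCGG on both strands, and the CCAAT box was searched as CCAAT on both strands. The motifs do not overlap each other. Windows run from 250 bases before a start to 50 bases after it, and 38 windows of 35 collagens matched. The GC box was present in 23 of the 38 (60.5%), against 35.7% of 32851 windows of all genes. The CCAAT box was present in 13 (34.2%), against 37.4% of all windows. Beyond the shared bases the windows of this pair differ. The full Col4a1 window held 1 GC box and 1 CCAAT box, and the full Col4a2 window held 3 GC boxes and 1 CCAAT box. A match is a description of letters and not a site.

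FACIT collagens decorate fibrils or link them to other matrix and held 4.84% of collagen TPM in each library. Over complete coding transcripts, their share was 2.41% in replicate 1 and 2.37% in replicate 2. Col12a1 had 73.1 TPM in replicate 1 and 69.2 TPM in replicate 2. Col16a1 had 72.2 and 59.1 TPM in replicates 1 and 2, and Col14a1 had 53.2 and 54.1 TPM. The values of Col12a1 and Col16a1 overlapped between libraries, so their order is not separated from replicate spread, while Col14a1 was below both in each library by gene TPM. Over complete coding transcripts the order turned, with Col14a1 at 34.5 and 33.3 TPM, Col12a1 at 22.1 and 20.7 TPM and Col16a1 at 12.4 and 8.66 TPM in replicates 1 and 2. By counts per kilobase of the longest complete coding transcript, Col14a1 was again above both in each library. The type IX chains, known from cartilage, were far lower. Col9a2 had 7.52 TPM in replicate 1 and 6.14 TPM in replicate 2, Col9a3 had 7.61 and 5.28 TPM, and Col9a1 had 2.40 and 1.55 TPM. Col19a1 had 2.47 TPM in replicate 1 and 2.99 TPM in replicate 2, and Col22a1, known from tissue junctions such as that of muscle and tendon, had 1.75 and 1.06 TPM.

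Among the remaining classes, the multiplexins, whose ends release fragments that act on vessels, held 1.35% and 1.31% of collagen TPM in replicates 1 and 2. Col18a1, the source of endostatin in basement membranes, had 43.5 TPM in replicate 1 and 36.7 TPM in replicate 2, and Col15a1 had 17.8 and 17.7 TPM. The gene Slc19a1 overlaps the span of Col18a1 on the other strand, with 759 and 846 counts beside 3525 and 3184 of Col18a1, and counting is not stated to use strand. All 4 transmembrane collagens were detected. Col23a1 had 17.6 and 15.9 TPM in replicates 1 and 2, Col25a1 had 5.61 and 5.52 TPM and Col13a1 had 1.76 and 1.94 TPM. Col17a1, which anchors basal cells of stratified epithelium through hemidesmosomes, had 9.69 TPM in replicate 1 and 7.44 TPM in replicate 2.

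Of the short-chain network collagens, Col8a1, found under endothelium, had 10.7 TPM in replicate 1 and 8.42 TPM in replicate 2. Its partner Col8a2 had 8.25 and 7.51 TPM. Col10a1, a marker of hypertrophic cartilage, was the lowest member of the family at 13 and 9 counts. It overlaps Nt5dc1 on the opposite strand, which had 397 and 388 counts. Col26a1 had 8.52 TPM in replicate 1 and 8.58 TPM in replicate 2. Col7a1, which makes the anchoring fibrils below stratified epithelium, had 1.31 and 1.17 TPM in replicates 1 and 2.

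The 8 members not detected had 9 to 126.6 counts a library and 0.17 to 1.10 TPM. They were Col5a3, Col11a2, Col6a5, Col4a3, Col4a4, Col20a1, Col10a1 and Col28a1. The nearest to the threshold was Col28a1 at 1.03 TPM in replicate 1 and 0.88 TPM in replicate 2. Just inside it was Col22a1, at 1.75 TPM in replicate 1 and 1.06 TPM in replicate 2. No member had a count of 0. In the order of the 44 levels, 19 of 43 neighbouring pairs overlapped between libraries, so ranks among the low members are not separated from replicate spread.

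Ratios between chains of 1 trimer were close between libraries for Col1a1 to Col1a2, Col4a1 to Col4a2 and Col5a1 to Col5a2. Type I collagen holds 2 Col1a1 chains for 1 Col1a2 chain, and the TPM ratio of Col1a1 to Col1a2 was 1.55 in replicate 1 and 1.53 in replicate 2 (1.54 ± 0.011, SD, n = 2). Over complete coding transcripts it was 1.62 and 1.61, so the ratio was under 2 in both libraries. The ratio of Col4a1 to Col4a2, also 2 chains to 1, was 3.04 in replicate 1 and 2.96 in replicate 2. It was above 2 in both libraries and was 3.04 and 2.97 over complete coding transcripts. Col5a1 to Col5a2, again 2 to 1, gave 1.53 in replicate 1 and 1.59 in replicate 2.

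For type VI, where each trimer takes 1 chain of each kind, Col6a1 to Col6a2 was 1.65 in replicate 1 and 1.86 in replicate 2. The Col6a3 ratios depended on how the level was taken. By gene TPM, Col6a3 to Col6a1 was 0.501 in replicate 1 and 0.484 in replicate 2. Over complete coding transcripts it was 0.166 and 0.165, and by counts per kilobase of the longest complete coding transcript 0.202 in both. Col6a3 was below Col6a1 by each measure. Col4a5 to Col4a6 was 4.57 in replicate 1 and 4.48 in replicate 2 by gene TPM, and 2.14 and 2.02 over complete coding transcripts. By counts per kilobase of the longest complete coding transcript it was 3.52 and 3.35, so this ratio also depended on the measure.

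Ratios of the type IX chains and of Col8a1 to Col8a2 differed between libraries, as that of Col6a1 to Col6a2 did. Col9a1 to Col9a2 was 0.319 in replicate 1 and 0.252 in replicate 2. By gene TPM, Col9a3 to Col9a2 was 1.01 and 0.860, so its side of 1 differed between the libraries. Over complete coding transcripts it was 0.763 and 0.584, under 1 in both. Col8a1 to Col8a2 was 1.29 in replicate 1 and 1.12 in replicate 2. Between types, Col3a1 to Col1a1 was 1.77 in replicate 1 and 1.82 in replicate 2 by gene TPM, and 1.13 and 1.14 over complete coding transcripts. Col5a1 to Col1a1 was 0.136 in replicate 1 and 0.145 in replicate 2. Both of these pairs were chosen after the levels were seen.

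**Figure D3:**
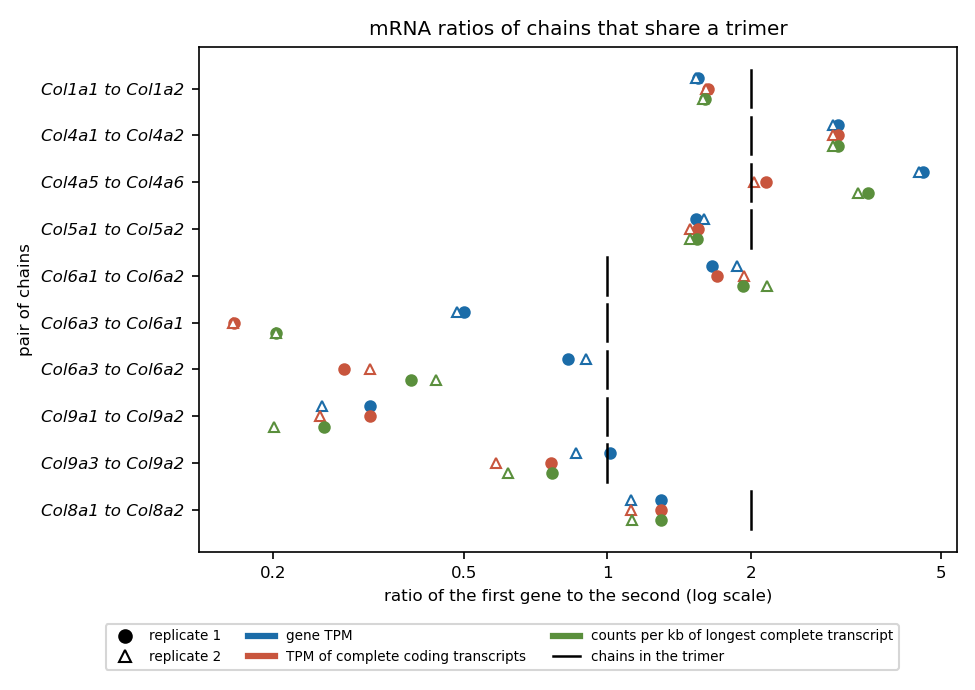
Ratio of the first gene to the second (x axis, log scale) for 10 pairs of chains in which both genes were detected, by gene TPM, by TPM of complete coding transcripts and by counts per kilobase. Filled circles are replicate 1, open triangles replicate 2, and black bars mark the number of chains in the trimer as commonly given. Col1a1 to Col1a2 lies under its bar and Col4a1 to Col4a2 over it by each measure.

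TPM divides by length, so a few reads assigned to a short annotated transcript give a large TPM, and this set part of the level of several collagens. For Col6a3 the top transcript was Col6a3-206, a retained-intron transcript of 646 bases with 62.3 TPM in replicate 1 and 51.9 TPM in replicate 2 from 575 and 508 counts. The complete coding transcript Col6a3-202, of 9001 bases, had 36.7 and 33.3 TPM from 5505 and 5311 counts. For Col3a1, the incomplete 737-base Col3a1-205 took 586 and 569 TPM from 6307 and 6498 counts in replicates 1 and 2, while the complete Col3a1-201 had 1070 and 964 TPM from 98616 and 94248 counts. By complete coding transcripts alone, Col3a1 thus stayed above Col1a1, at 943 and 847 TPM, by a smaller margin.

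A complete coding transcript was on top in 29 of the 36 detected members. The share over all detected genes is not given here, so this count is not read as particular to collagens. The other 7 were Col6a3, Col12a1 with Col12a1-204 on top, Col16a1 with Col16a1-207, Col4a5 with Col4a5-204, Col27a1 with Col27a1-205, Col6a4 with Col6a4-203 and Col24a1 with Col24a1-204. In these 7, complete coding transcripts held under 50% of the gene's TPM in both libraries. The lowest share was that of Col16a1, at 17.1% in replicate 1 and 14.7% in replicate 2. For Col1a1, Col6a1, Col4a1, Col4a2, Col8a1, Col8a2 and Col23a1, by contrast, 1 complete transcript, numbered 201 for each gene, held over 99% of TPM in both libraries.

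Single complete transcripts also led Col1a2 (Col1a2-201), Col5a1 (Col5a1-201), Col5a2 (Col5a2-201), Col6a2 (Col6a2-201), Col11a1 (Col11a1-201), Col14a1 (Col14a1-203), Col17a1 (Col17a1-201), Col26a1 (Col26a1-202), Col4a6 (Col4a6-201), Col9a2 (Col9a2-201), Col9a3 (Col9a3-201) and Col25a1 (Col25a1-202). Their mean share ran from 53.9% for Col14a1 to 97.8% for Col9a2. For Col15a1 the top transcript was the 1755-base Col15a1-203, which starts near the end of the gene, with 59.6% of TPM in replicate 1 and 58.7% in replicate 2. The full-length Col15a1-202 had 561 and 620 counts beside 296 and 308 of Col15a1-203.

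**Figure D4:**
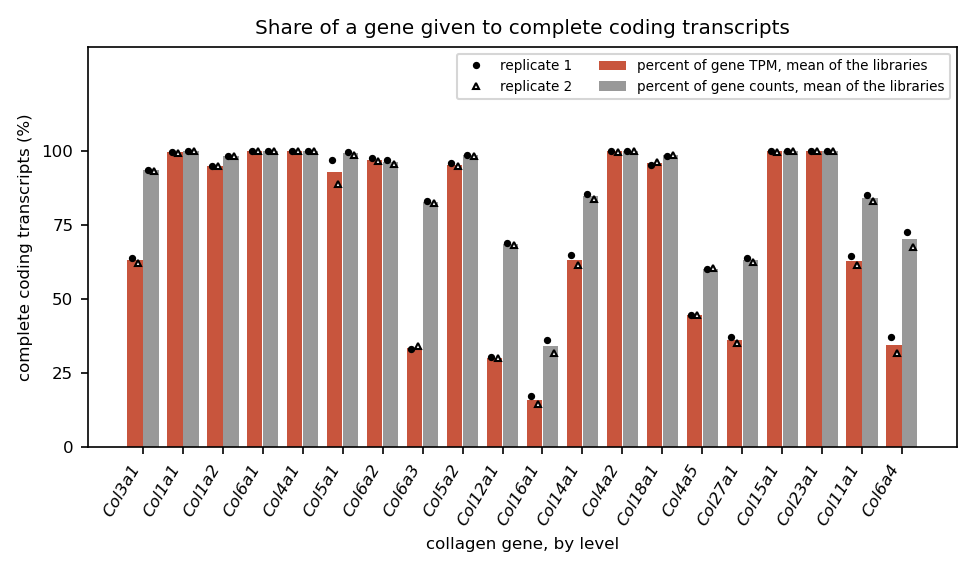
Percent of each gene's TPM (red) and counts (grey) assigned to complete coding transcripts (y axis) for the 20 most abundant collagens, ordered by level. Bars are means of the libraries, circles replicate 1 and triangles replicate 2. Col6a3, Col12a1, Col16a1, Col4a5, Col27a1 and Col6a4 fall below 50% of TPM.

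Some members have alternative promoters. Col18a1-202, which starts at base 77166548 of chromosome 10, upstream of the start of the longer protein forms, had 94.3% of TPM in replicate 1 and 94.6% in replicate 2. Col18a1-203, which starts 52843 bases downstream, had 26.8 counts in replicate 1 and 54.1 in replicate 2. Col9a1 reads were assigned to Col9a1-202, which starts at base 24195187 of chromosome 1, with 120 counts in replicate 1 and 78 in replicate 2. The transcript from the upstream promoter, known as the form of cartilage, was listed at 0 in both. Counts of transcripts are estimated splits of a gene's reads, so this 0 sets no firm bound. Col2a1-201, with 54 exons, had 125 and 165 counts, and Col2a1-202, with 53 exons, had 69.7 counts in replicate 1 and 0 in replicate 2. The top transcript was the same in both libraries for 35 of 36 members, with no share over all genes given beside it. The exception was Col13a1, where Col13a1-205 led in replicate 1 with 0.89 TPM and Col13a1-204 led in replicate 2 with 0.69 TPM.

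Between the libraries, collagens were slightly higher in replicate 1. The log2 ratio of replicate 1 over replicate 2, from expected counts scaled with TMM, had a median of 0.08 over the 35 members that averaged at least 100 counts, and of 0.01 over all 12761 genes that did. Of the 35, 25 were higher in replicate 1, as were 6621 of the 12761. No collagen among the 35 was over 1.5-fold apart. Over all genes 1.25% were, 160 of 12761, and 0.815% were over 1.5-fold higher in replicate 1. A share of this size would be under 1 gene of 35, so the count of 0 is near the background. No p-value can be given for single libraries. Embryo, any difference of sex that goes with the unequal Xist counts, collection day and library cannot be told apart.

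The abundant members moved by little. For Col3a1, counts of 105310 in replicate 1 and 101138 in replicate 2 gave a log2 ratio of 0.08 with a 95% counting interval of 0.07 to 0.09. Col1a1 had 92744 and 88407 counts, a log2 ratio of 0.09, and Col1a2 had 52299 and 50291 counts, a log2 ratio of 0.08. The counting interval lay above 0 for 16 of the 35 and below 0 for 2, and it covers counting error only. The matching split over all genes is not given here, so this one is not read as a result about collagens. Among the highest ratios were Col9a3 at 1.49-fold (285 counts in replicate 1 and 194 in replicate 2) and Col17a1 at 1.29-fold (865 and 681 counts). The lowest was Col19a1, with a log2 ratio of -0.32 (181 counts in replicate 1 and 230 in replicate 2). Of the 9 members below that count, Col11a2 was 2.29-fold and Col9a1 1.54-fold higher in replicate 1, with 120 and 79 counts for Col9a1. In the other direction, Col20a1 had a log2 ratio of -0.68 from 22 and 36 counts in replicates 1 and 2, and its counting interval of -1.52 to 0.12 included 0.

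**Figure D5:**
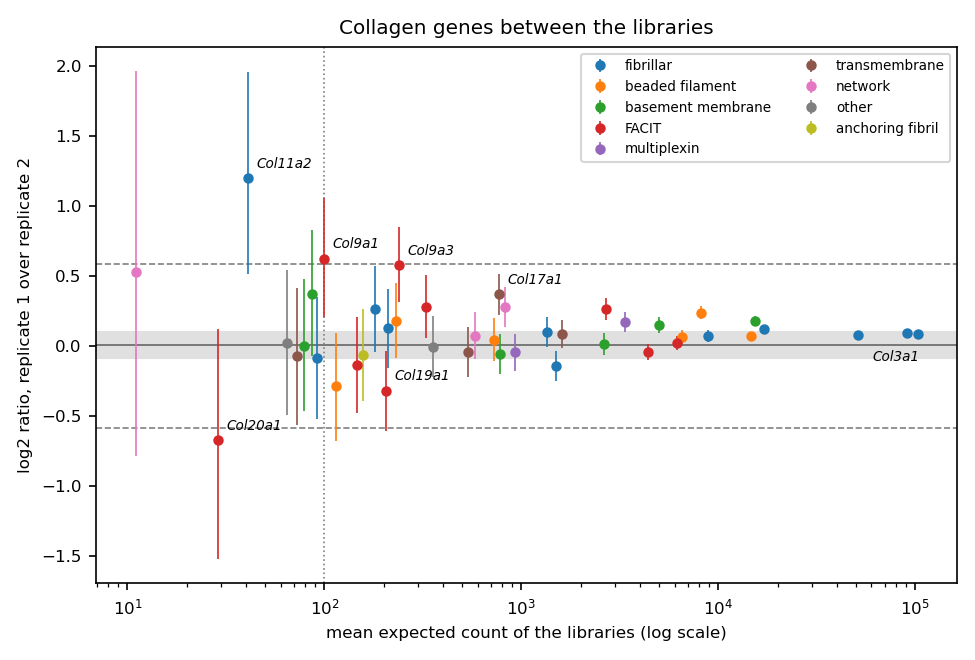
Log2 ratio of replicate 1 over replicate 2 (y axis) against the mean expected count (x axis, log scale) for the 44 collagens, with 95% counting intervals. The grey band is the middle 50% of all 12761 genes at that depth, dashed lines mark 1.5-fold and the dotted line a mean count of 100. No collagen to the right of the dotted line passes 1.5-fold, and to its left Col11a2 and Col9a1 pass it upwards and Col20a1 downwards.

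Collagens known from cartilage differed in direction between the libraries. The log2 ratio of replicate 1 over replicate 2 was 0.62 for Col9a1, 0.58 for Col9a3, 0.28 for Col9a2, 0.26 for Col2a1 and 0.10 for Col27a1. For Col10a1 it was 0.53, from 13 and 9 counts, and Col11a2 was 2.29-fold higher in replicate 1. Col11a1, with the most counts of these, was lower in replicate 1, with a log2 ratio of -0.15 and a counting interval of -0.25 to -0.04. Cartilage markers also differed in direction. Of 9 markers, Hapln1 (3.69 and 3.91 TPM in replicates 1 and 2) and Cnmd (2.13 and 1.00 TPM) were detected, and Matn4 was next at 1.49 and 0.82 TPM. The list summed to 8.41 TPM in replicate 1 and 6.59 TPM in replicate 2. Acan, the cartilage proteoglycan, had 62 counts in replicate 1 and 21 in replicate 2, Hapln1, the only marker averaging over 100 counts, had 308 and 347 counts, and Ucma was at 0 in both. Of 6 bone markers, Sp7 was detected at 1.92 and 1.41 TPM, Dmp1 had 0.54 and 0.50 TPM, and Phex had 0.27 and 0.16 TPM. The list summed to 2.85 and 2.31 TPM, and Bglap was at 0 in both. The part of cartilage in these ratios was not tested.

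Col17a1 stood beside its epithelial partners. All 9 genes of the hemidesmosome list were detected, with Itga6, Krt5 and Plec the highest. For Krt5, a keratin of basal cells, 1762 counts in replicate 1 and 1380 in replicate 2 gave a log2 ratio of 0.37, and Col17a1 also had 0.37. Lamb3 had a log2 ratio of 0.36, and Itgb4 of 0.04. The part of epithelial content in the Col17a1 ratio was not tested. The X-linked genes had log2 ratios of 0.01 for Col4a5 and -0.06 for Col4a6, beside the unequal Xist counts given above.

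Genes that make and handle collagen were broadly present. All 13 genes of prolyl and lysyl hydroxylation were detected, led by P4hb at 668 TPM in replicate 1 and 587 TPM in replicate 2, Ppib at 478 and 450 TPM, and Crtap at 122 and 117 TPM. All 13 of folding, glycosylation and export were detected, led by the chaperone Hspa5 (611 and 454 TPM), the collagen chaperone Serpinh1 (336 and 326 TPM) and the export receptor Mia3 (91.5 and 77.95 TPM). Of 8 genes of propeptide processing, 5 were detected, with Pcolce at 106 and 103 TPM, Bmp1 at 44.7 and 41.7 TPM and Adamts2 at 9.89 and 8.66 TPM. All 5 cross-linking enzymes were detected, with Lox at 62.3 and 50.8 TPM, Loxl2 at 35.6 and 34.9 TPM and Loxl1 at 29.0 and 23.6 TPM. The median log2 ratios of these 4 lists were 0.07, 0.01, -0.03 and -0.01, in the order given, beside 0.08 for the collagens and 0.01 for all genes. Of genes averaging at least 100 counts, 12 of 13 in the hydroxylation list were higher in replicate 1. So were 7 of 13 for folding, glycosylation and export, 2 of 5 each for processing and cross-linking, and 6621 of 12761 over all genes.

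Of 8 genes for regulators of fibrils, 7 were detected. Sparc, which binds collagen, had 1285 TPM in replicate 1 and 1188 TPM in replicate 2, the proteoglycan Dcn had 520 and 487 TPM, and Lum had 289 and 290 TPM. All 12 basement membrane partners of type IV were detected, with the laminin chains Lamb1 at 83.3 and 80.6 TPM and Lamc1 at 85.4 and 76.7 TPM, and the peroxidase Pxdn, which cross-links type IV, at 80.3 and 76.3 TPM. Of 9 receptors 6 were detected, with Itgb1 at 280 and 234 TPM, Ddr2 at 45.6 and 42.9 TPM and Ddr1 at 37.4 and 35.5 TPM. Of 14 turnover genes 11 were detected, with Mmp2 at 133 and 119 TPM, Mmp14 at 113 and 108 TPM and Timp2 at 82.95 and 74.3 TPM.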

How the data were processed

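RNA was measured in 2 libraries of 1 group. Per the labels, RNA was extracted with a mirVana kit, short RNAs were left out, nanogram amounts were used, spike-ins were added and a Smart-seq protocol was linked. The authors deposited a gene table and a transcript table for each library, on mm10 with GENCODE M4 per the deposited notes. The aligner, the counting program and any use of strand were not given in the sources used here. Deposited expected counts are estimated reads, not normalized, and are whole for 38 of the 44 collagens. Deposited TPM values are per effective length and scale over genes and spike-ins, which took 12.1% of TPM in replicate 1 and 14.2% in replicate 2. The deposited percent per transcript is its share of the gene's TPM. Spike-ins and numbered entries were left out of shares and library sizes, and 884 identifiers without a symbol held 0.191% and 0.19% of gene counts.

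Identifiers were matched to GENCODE M21 (mm10). Members at TPM 1 or more in both libraries were named with both values, with the 3 highest genes of each list and the top transcript of members with a mean TPM of 5 or more or with a top transcript that differed. The class table also named 1 gene that was not matched. The members and lists were chosen with earlier results of these data known. Values are per library or mean ± SD (n = 2). Ratios used TMM sizes from edgeR 4.0.16 in R 4.3.3 with 0.5 added to each count, and exact binomial intervals at 95%, which cover counting error only since reads without molecular identifiers are not independent molecules. A gene count of 0 allows up to 3 counts. The ratio step was tested on simulated data with changes larger than any collagen ratio given here, so that test does not bear on small ratios. A complete coding transcript has an annotated start and stop codon. DESeq2 1.42.0 size factors, spike-in scaling, other thresholds, posterior mean TPM, coding transcripts and single libraries were alternatives. Python 3.11.15, pandas 2.3.3 and scipy 1.17.1 were used. Coding features came from the longest coding sequence of each gene, with runs of at least 5 triplets.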

Additional observations from a re-analysis of the deposited data

How the results depend on the processing

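With 2 libraries of 1 group, the spread between them is the only measure of error, and depth limits members under 100 counts. The collagen share of gene TPM was 0.435% with spike-ins kept in the total, 0.557% over complete coding transcripts and 1.48% as a share of expected counts. The fibrillar share of the family was 77.8% by expected counts and 77.7% over complete coding transcripts. Over protein-coding transcripts, complete coding transcripts, counts per kilobase and expected counts not divided by length, Col1a1 to Col1a2 was 1.61, 1.62, 1.59 and 1.77, and Col5a1 to Col5a2 was 1.64, 1.52, 1.51 and 1.92. By expected counts Col4a1 to Col4a2 was 3.08, and by counts per kilobase Col6a1 to Col6a2 was 2.04. By gene TPM, Col9a3 to Col9a2 ranged from 0.860 to 1.01 with 1 library left out, so its side of 1 changed. Its mean was 0.674 over complete coding transcripts, 0.721 by expected counts and 0.692 by counts per kilobase. By each of these 3 it was under 1 in both libraries. Scaling on spike-in counts moved every log2 ratio by 0.27, giving a collagen median of 0.35 and 2 members over 1.5-fold. The TPM ratio gave 1 such member and a minimum mean count of 10 gave 3. The matching shares over all genes at these settings are not given here, so these counts are not read as results about collagens. By posterior mean TPM, the top transcript differed between libraries for Col2a1, Col13a1 and Col22a1, where by TPM it did so for Col13a1 only. The alternatives with complete coding transcripts and counts per kilobase were chosen after seeing the data. The cause of these shifts was not tested beyond the construction of each measure. No paired analysis was possible because there is only 1 group.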

Other observations

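Genes outside the family that also carry a collagen-like domain were chosen after the data were seen. Of 17 such genes, 11 were detected. Emilin1, an elastic fibre glycoprotein, had 180 TPM in replicate 1 and 157 TPM in replicate 2. Colec12, a scavenger receptor with a collagen-like stalk, had 69.3 and 61.0 TPM in replicates 1 and 2, and Cthrc1, a secreted protein with a short collagen repeat, had 67.2 and 60.9 TPM. The complement genes C1qa, C1qb and C1qc, which macrophages express, had 31.6, 52.1 and 25.6 TPM in replicate 1 and 25.4, 52.4 and 25.2 TPM in replicate 2. Emid1 had 43.3 and 34.0 TPM in replicates 1 and 2, with a mean of 38.6 TPM between the 40.1 TPM of Col18a1 and the 32.0 TPM of Col4a5, and Marco was at 0 in both libraries.

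In the annotation, 30 other genes overlap the span of 24 collagens, 19 of them on the opposite strand. Of the 30 genes, 2 exceeded the collagen they overlap in counts, in at least 1 library. They were Nt5dc1 at Col10a1, on the opposite strand, and BX649560.1 at Col20a1, on the same strand. BX649560.1 had 32 and 34 counts beside 22 and 36 of Col20a1 in replicates 1 and 2.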
